A study of Mus musculus with 28 samples.

Results

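The transcripts of 3 metallothioneins (Mt1, Mt2 and Mt4) and 3 zinc transporters (Slc30a1, Slc39a14 and Slc39a4) were followed through the repair of a skin wound in mice. These 6 genes were chosen by name from the 29068 gene symbols of the count table, and all 6 were among the 18107 genes with enough counts to be tested. The mice were MLKL+/+ littermates on a C57BL/6J background, of both sexes and 8 weeks old, housed singly, and no other genotype or agent entered the comparisons. A 6-mm punch wound was made in the back skin down to the fascia, and RNA of the whole wound site, with scab and epithelial margin, was sequenced in 4 libraries each on Days 0, 3, 5, 7, 10, 12 and 14, which gives 28 libraries. The series' own design text speaks of 5 repeats of each sample, and 4 libraries a day were analysed here. Day 0 is the control of the labels. The paper lists a day 1, its name for the day of wounding, and no day 0, and whether that is the Day 0 group is not stated, so whether the Day 0 skin was unwounded or freshly wounded is not known here. Nothing states that the libraries of a day came from pooled animals, nor that each came from a separate mouse, so the p-values measure the spread between these libraries.

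Metallothioneins are small cysteine-rich proteins that bind zinc and copper in the cell. Mt1 and Mt2 are made in most tissues and are induced by zinc through the metal-sensing transcription factor Mtf1, and also by glucocorticoids and in the acute phase response, while Mt4 is known from stratified squamous epithelia. Slc30a1 (ZnT1) moves zinc out of the cell across the plasma membrane. The Slc39 family (ZIP) moves zinc into the cytosol, and of its members Slc39a14 (ZIP14) also carries iron and manganese and is induced by inflammatory cytokines, while Slc39a4 (ZIP4) is the zinc importer of the intestine, whose loss in humans gives the zinc deficiency skin disease acrodermatitis enteropathica.

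In the GENCODE annotation of GRCm38, the same assembly as the mm10 build named for the deposited tables, the 3 metallothioneins lie on the plus strand of chromosome 8 within 43131 bases. Mt4 (ENSMUSG00000031757) spans chr8:94137197-94139031, Mt2 (ENSMUSG00000031762) spans chr8:94172664-94173568, and Mt1 (ENSMUSG00000031765) spans chr8:94179082-94180327. The gap between Mt4 and Mt2 is 33632 bases and that between Mt2 and Mt1 is 5513 bases. Slc30a1 (ENSMUSG00000037434) spans chr1:191906767-191913247 on the plus strand, Slc39a14 (ENSMUSG00000022094) spans chr14:70303469-70351425 on the minus strand, and Slc39a4 (ENSMUSG00000063354) spans chr15:76612383-76617384 on the minus strand. Mt1 and Mt2 are similar in sequence and could share reads, so the split between them is uncertain. Slc30a1 overlaps 1700034H15Rik on the opposite strand, which had 5 to 79 counts per library, and reads of the pair cannot be told apart without strand. Mt2 overlaps Gm45774, which is not in the count table.

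RefSeq promoters (GRCm38.p6) were at hand for 4 of the 6 genes, namely Mt1, Mt2, Mt4 and Slc30a1. They are shown as background, and their part in the course of any of these genes was not tested. Each sequence is given 5′ to 3′ on the plus strand, starts 250 bases before the RefSeq start of the gene and stops before the first annotated exon, and capitals mark the core of the metal response element, the site bound by Mtf1 (TGCACNC or TGCGCNC on either strand).
Mt1, chr8:94178839-94179081: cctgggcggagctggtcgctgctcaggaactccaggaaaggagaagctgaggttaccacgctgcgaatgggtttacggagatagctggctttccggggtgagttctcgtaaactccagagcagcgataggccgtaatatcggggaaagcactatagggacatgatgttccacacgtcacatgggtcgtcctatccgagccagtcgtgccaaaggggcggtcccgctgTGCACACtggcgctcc
Mt2, chr8:94172368-94172617: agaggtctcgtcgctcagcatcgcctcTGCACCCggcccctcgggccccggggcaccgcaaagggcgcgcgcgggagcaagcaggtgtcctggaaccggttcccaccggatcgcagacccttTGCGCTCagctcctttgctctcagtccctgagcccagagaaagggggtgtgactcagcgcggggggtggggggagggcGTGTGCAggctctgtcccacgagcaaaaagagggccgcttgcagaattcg
Mt4, chr8:94136954-94137196: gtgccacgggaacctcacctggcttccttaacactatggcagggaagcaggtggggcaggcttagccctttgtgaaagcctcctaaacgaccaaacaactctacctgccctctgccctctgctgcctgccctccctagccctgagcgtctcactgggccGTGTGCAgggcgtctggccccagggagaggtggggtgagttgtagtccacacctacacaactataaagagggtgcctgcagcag
Slc30a1, chr1:191906531-191906766: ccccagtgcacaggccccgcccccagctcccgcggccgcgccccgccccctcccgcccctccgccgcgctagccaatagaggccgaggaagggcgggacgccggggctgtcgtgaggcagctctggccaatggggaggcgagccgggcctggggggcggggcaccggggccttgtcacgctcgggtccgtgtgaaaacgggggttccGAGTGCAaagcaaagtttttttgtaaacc

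The Mt2 promoter held 3 cores, TGCACNC at 223 to 217 bases before the start, TGCGCNC at 128 to 122 bases and TGCACNC on the minus strand at 50 to 44 bases. The promoters of Mt1 (23 to 17 bases before the start), Mt4 (91 to 85 bases, minus strand) and Slc30a1 (43 to 37 bases, minus strand) held 1 core each. Of all 32851 promoters of the table, 21.4% held at least 1 core in the same 250 bases and 1.26% held at least 3. The antioxidant response element core TGACNNNGC was found in Mt2 (79 to 71 bases, plus strand) and Slc30a1 (82 to 74 bases, minus strand) and in 10.2% of all promoters. A glucocorticoid response element, which reads alike on both strands, was found in Mt1 (94 to 82 bases) and in 0.387% of all promoters. The STAT motif TTCNNNGAA, found in 7.02% of all promoters, was in none of the 4 windows. Matches are letters in a window and not measured sites. For Mt1 the window precedes the first of 3 annotated transcript starts, and the others, at positions 94179211 and 94179241 of chromosome 8, lie downstream of it. The bases just before these later starts were not searched, so the count of 1 core for Mt1 holds for the printed window only.

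Libraries held 36706513 to 40655764 counts, so depth was nearly even. CPM below are counts scaled to a common library size. The biological coefficient of variation was 26.5% on Day 0 and 5.77% to 10.8% on the later days. The Day 0 libraries fell into pairs, replicates 1 and 4 against replicates 2 and 3. The 6 fibroblast markers summed to 25002 and 14286 CPM in replicates 1 and 4 and to 55970 and 53733 CPM in replicates 2 and 3. The 5 basal epidermal markers summed to 6857 and 7958 CPM against 3766 and 3878 CPM, and the 5 skeletal muscle markers to 26363 and 27464 CPM against 16381 and 16701 CPM. Mt1, Mt2, Mt4 and Slc30a1 were also higher in replicates 1 and 4 than in 2 and 3, and highest in replicate 1. The part of this difference in the comparisons with Day 0 was not tested, beyond leaving out each library in turn, and where leaving out replicate 1 gained or lost a call against Day 0, both values are given. The labelled tissue was checked by marker lists. All 8 suprabasal and all 5 basal epidermal markers had counts on each day, as did all 6 fibroblast markers, and so did all 5 skeletal muscle markers, whose summed level was 3649 to 9356 CPM after Day 0. In bulk RNA, fewer cells of a type and less RNA per cell cannot be told apart.

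Levels are given below as CPM, scaled by edgeR's TMM method, which compare 1 gene across libraries. Changes are log2 fold changes from edgeR's quasi-likelihood test with the standard error, and a gene is called where its p, adjusted over all genes tested, is under 0.05. The fit pools the spread of a gene over all days, although the spread was largest on Day 0. Its standard errors and p-values can thus understate the spread in comparisons with Day 0 and overstate that between later days. Many genes changed in these wounds, so each count of members is set beside the share of all genes called. On Day 3, 3 members rose against Day 0 (31.8% of all genes rose) and 2 fell (34.8% of all genes fell). On Day 5, 4 rose (29.0% of all genes) and 2 fell (30.6%). On Day 7, 1 rose (25.6%) and 1 fell (24.8%), and on Day 10 also 1 rose (23.5%) and 1 fell (26.9%). On Day 12, 4 rose (21.7%) and none fell (25.6%), and on Day 14, 5 rose (28.2%) and 1 fell (34.5%). The study itself required a log2 fold change of more than 1.5, up or down, and an unadjusted p under 0.05. These limits were passed by 4 members on Day 3 and by 4 on Day 5 (18.9% and 13.9% of all genes), by 0 on Days 7 and 10 (9.40% and 9.47%), by 1 on Day 12 (7.39%) and by 3 on Day 14 (14.0%). The median log2 fold change of the 6 members, which moved both ways on most days, was 1.55 and 1.34 on Days 3 and 5, then -0.02 and 0.14 on Days 7 and 10, and 0.80 and 1.35 on Days 12 and 14, while over all genes it was between -0.06 and 0.00 on these 6 days. The balance of calls on the late days depended on scaling. Of the genes called on Day 12, 45.8% were higher, and without composition normalization 67.4%, with the median over all genes moved from -0.04 to 0.11, while limma on FPKM gave 66.9% to 71.0%. On Day 14 the share was 45.0%, 56.2% without composition normalization and 56.9% to 60.8% with limma. No member called on these days turned its direction under any of these scalings. Levels differed among Days 3 to 14 for all 6 members in a joint test that does not use Day 0, as they did for 85.1% of all genes.

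**Figure D1:**
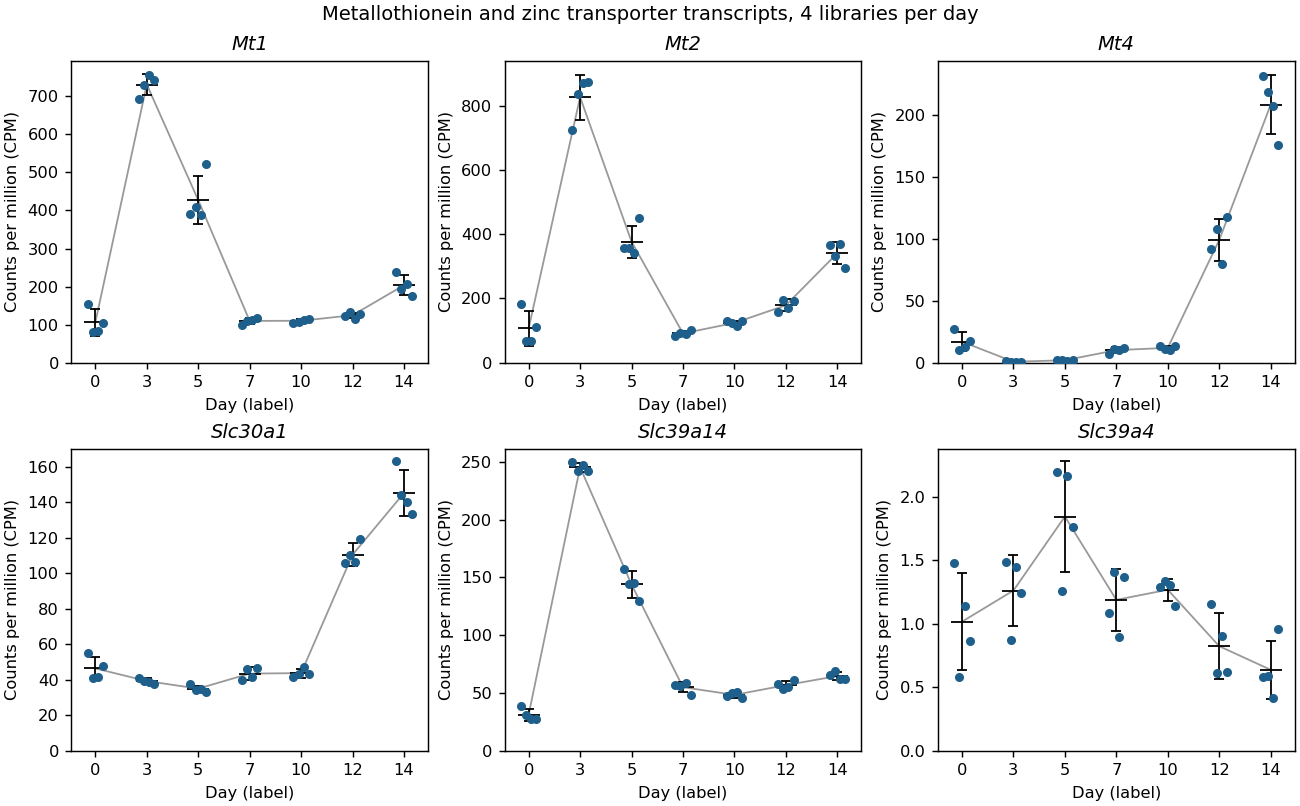
CPM of each member by day; each point is 1 library, horizontal marks are day means, bars are 1 SD (n = 4), and each panel has its own scale from 0. Mt1, Mt2 and Slc39a14 were highest on Day 3, Mt4 and Slc30a1 were highest on Day 14, and Slc39a4 stayed between 0.418 and 2.20 CPM.

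Mt1 and Mt2 were highest early in the wound. Mt1 rose 6.92-fold on Day 3 and Mt2 rose 7.75-fold, both were back among the Day 0 values on Day 7, and both rose again by Day 14. In the 4 Day 0 libraries Mt1 stood at 155, 79.5, 82.5 and 105 CPM, and on Day 3 at 694, 731, 757 and 743 CPM. Every Day 3 library was above every Day 0 library, with a log2 fold change of 2.79 ± 0.14 (SE, adjusted p = 1.18e-15). On Day 5 Mt1 was at 390, 408, 389 and 522 CPM, still 2.02 ± 0.14 above Day 0 on the log2 scale (adjusted p = 1.03e-12). On Day 7 it was at 99.8, 109, 113 and 117 CPM and on Day 10 at 105, 107, 113 and 115 CPM, within the range of Day 0. Neither day was called in the full set (adjusted p = 0.760 and 0.746), but without Day 0 replicate 1, the highest of its day, both were called, with log2 fold changes of 0.30 (adjusted p = 0.0170) and 0.31 (adjusted p = 0.0149). On Day 12 Mt1 was at 124, 132, 116 and 127 CPM (log2 fold change 0.24 ± 0.14, adjusted p = 0.152, and 0.50 with adjusted p = 0.000227 without Day 0 replicate 1). Mt1 was also called higher on Day 12 without composition normalization and with limma on FPKM, with values up to 0.43 (adjusted p down to 0.00671). On Day 14 it was at 238, 193, 207 and 175 CPM, all above Day 0, with a log2 fold change of 0.95 ± 0.14 (adjusted p = 8.95e-07).

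Mt2 was at 182, 66.4, 68.3 and 110 CPM on Day 0 and at 724, 837, 871 and 872 CPM on Day 3. The Day 3 libraries all lay above those of Day 0, with a log2 fold change of 2.95 ± 0.20 (adjusted p = 3.82e-13). On Day 5 the values were 357, 357, 341 and 451 CPM (log2 fold change 1.82 ± 0.19, adjusted p = 4.30e-09). On Day 7 they had come down to 83.0, 91.8, 88.1 and 101 CPM, which lay within Day 0, with a log2 fold change of -0.23 ± 0.19 (adjusted p = 0.320) that became 0.16 without Day 0 replicate 1 (adjusted p = 0.328). On Day 10 Mt2 stood at 128, 123, 115 and 128 CPM, not called in the full set (log2 fold change 0.21 ± 0.19, adjusted p = 0.365) and called without Day 0 replicate 1 (0.60, adjusted p = 0.000331). On Day 12 it had reached 158, 196, 168 and 191 CPM, of which 2 libraries lay above all of Day 0, with a log2 fold change of 0.74 ± 0.19 (adjusted p = 0.00186). Without Day 0 replicate 1 it was 1.15 (adjusted p = 4.06e-08), while edgeR on Days 0 and 12 alone, 8 libraries, lost the call (adjusted p = 0.0682). On Day 14 Mt2 was at 366, 332, 368 and 296 CPM, 1.67 ± 0.19 above Day 0 on the log2 scale (adjusted p = 1.77e-08), and these libraries overlapped those of Day 5.

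Several marker lists were also high early, and their part in the early peak of Mt1, Mt2 and Slc39a14 was not tested. The summed CPM of 7 neutrophil markers was 16.4 to 42.7 on Day 0 and 4369 to 5514 on Day 3, then 1587 to 1997 on Day 5, and it was down to 540 to 955 by Day 7. On Days 12 and 14, when Mt2 was above Day 0, it was 20.3 to 23.2 and 15.2 to 18.6, and Ly6g, the marker that gives neutrophils their common antibody stain, was at 0 in all libraries of Days 0 and 12. The summed CPM of 4 wound edge keratin genes was 468 to 709 on Day 0 but 2454 to 2984 on Day 3. It stayed above Day 0 at 1393 to 1742 on Day 7 and 1279 to 1444 on Day 10, when Mt1 and Mt2 were within the range of Day 0, and it stood at 897 to 1013 on Day 12 and 1486 to 1792 on Day 14. The 6 macrophage markers summed to 1747 to 2676 CPM on Day 0 and 4738 to 4911 CPM on Day 3. They were at 4881 to 5279 CPM on Day 5, which overlapped Day 3, and still at 3603 to 3871 CPM on Day 7, when Mt1 and Mt2 were back within the range of Day 0, and they came to 862 to 924 CPM by Day 14. The 4 endothelial markers summed to 351 to 523 CPM on Day 0, 716 to 785 CPM on Day 3, 667 to 799 CPM on Day 5 and 534 to 624 CPM on Day 7, and to 337 to 386 CPM on Day 14. The 6 fibroblast markers summed to 14286 to 55970 CPM on Day 0, 21464 to 23560 CPM on Day 3 and 39232 to 41684 CPM on Day 5. They were at 55049 to 56044 CPM on Day 7 and 52440 to 59655 CPM on Day 10. By Day 12 they were at 39576 to 46058 CPM and by Day 14 at 15978 to 19143 CPM. The part of the fibroblast list in the early peak and in the rise of Day 14 was not tested. The 7 hair follicle genes, given in full beside Mt4, summed to 247 to 2191 CPM on Day 0 and 7.23 to 13.8 CPM on Day 3. Their sum was 1308 to 1771 CPM on Day 7, 4512 to 5938 CPM on Day 12 and 3877 to 5222 CPM on Day 14. The part of this list in the late rise of Mt1 and Mt2 was not tested.

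The ratio of Mt2 to Mt1 counts within a library does not depend on how libraries are scaled. It ranged over 0.828 to 1.17 on Day 0 and over 1.04 to 1.17 on Day 3. The values of Day 5 were lower, 0.863 to 0.916, and so were those of Day 7, 0.781 to 0.857, while the Day 10 libraries were at 1.02 to 1.22. On Day 12 it was 1.28 to 1.51 and on Day 14 1.54 to 1.78, above every Day 0 library on both days. The mean log2 ratio was 0.57 higher on Day 12 and 0.81 higher on Day 14 than on Day 0. An exact two-sided permutation test gave p = 0.0286 for each of these days, the smallest value that 4 libraries against 4 allow, and adjusted over the 6 days p = 0.0857 in the permutation test, which is not past 0.05. On the other days the exact permutation p was 0.200 to 0.429. Without Day 0 replicate 1, whose ratio was the highest of Day 0 at 1.17, the differences were 0.67 on Day 12 and 0.90 on Day 14.

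**Figure D2:**
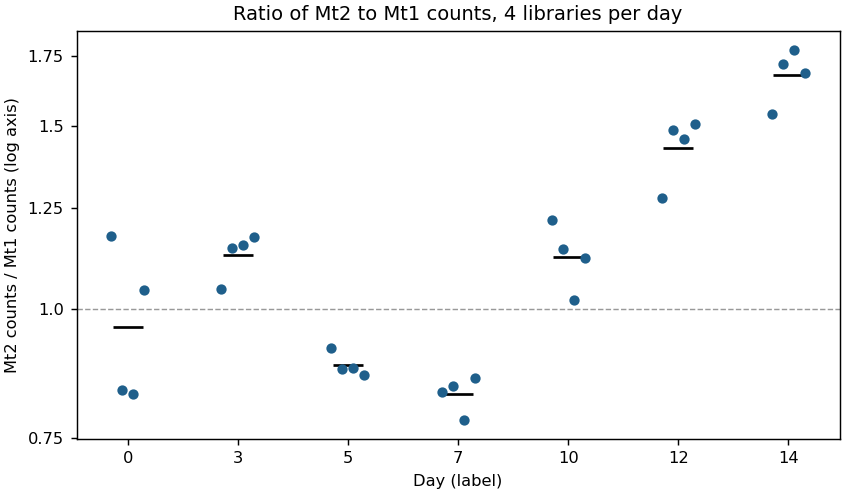
Ratio of Mt2 to Mt1 counts in each library by day on a log axis; points are libraries, black marks are day means of the log2 ratio, and the dashed line is a ratio of 1. The Day 12 and Day 14 libraries lie above all Day 0 libraries, at 1.28 to 1.51 and 1.54 to 1.78.

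Mt4, the metallothionein of stratified epithelia, moved the other way. It fell early and was highest at the end, with a 23.4-fold drop on Day 3 and a 12.3-fold rise on Day 14 against Day 0. On Day 0 it stood at 27.2, 10.6, 12.4 and 17.8 CPM, from 1029, 418, 477 and 641 counts. On Day 3 it was at 0.972, 0.354, 0.792 and 0.773 CPM, from only 36, 13, 29 and 28 counts, and every one of these libraries was below every Day 0 library (log2 fold change -4.55 ± 0.29, adjusted p = 1.30e-13). On Day 5 the values were 2.17, 1.81, 1.66 and 2.09 CPM, again all below Day 0 (log2 fold change -3.13 ± 0.25, adjusted p = 1.74e-11). On Day 7 Mt4 was at 6.76, 10.9, 10.5 and 12.2 CPM and on Day 10 at 13.2, 11.0, 10.4 and 13.2 CPM, and on both days the libraries overlapped those of Day 0. The log2 fold change was called on both days, at -0.75 ± 0.21 for Day 7 (adjusted p = 0.00363) and -0.50 ± 0.20 for Day 10 (adjusted p = 0.0425). Without Day 0 replicate 1 the Day 7 value shrank to -0.42 (adjusted p = 0.0464), and its call was lost in a fit of the 8 libraries alone (adjusted p = 0.0580), and on Day 10 the value shrank to -0.18 without Day 0 replicate 1 (adjusted p = 0.425). The Day 10 call was also lost without Day 0 replicate 4, without Day 10 replicate 1, 2 or 3, without composition normalization, in the fit of 8 libraries, and with DESeq2 and limma.

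Mt4 then rose to 91.6, 108, 79.9 and 118 CPM on Day 12 and to 232, 219, 207 and 176 CPM on Day 14. All libraries of both days lay above Day 0, with log2 fold changes of 2.55 ± 0.20 (adjusted p = 6.90e-11) and 3.62 ± 0.21 (adjusted p = 3.80e-14). From Day 10 to Day 12 it rose 8.29-fold (log2 fold change 3.05 ± 0.21, adjusted p = 3.71e-12). On Day 3, when Mt1 and Mt2 were called higher than Day 0, Mt4 was called lower, and on Day 14 all 3 were called higher.

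Epidermal and hair follicle markers are given beside Mt4, and their part in its course was not tested. The summed CPM of 7 hair follicle genes (hair keratins and trichohyalin) was 247 to 2191 on Day 0 and only 7.23 to 13.8 and 12.7 to 20.5 on Days 3 and 5. It came to 1308 to 1771 on Day 7 and was 258 to 297 on Day 10, and the highest values were 4512 to 5938 on Day 12 with 3877 to 5222 on Day 14. The list and Mt4 were both lowest on Days 3 and 5 and both highest on Days 12 and 14. They parted on Day 7, when the hair list was above that of Day 10 in every library while the Mt4 values of the 2 days overlapped, and on Day 14, when Mt4 was above Day 12 in every library while the hair lists of the 2 days overlapped. On Day 0 the highest library of both was replicate 1, with 2191 CPM of hair genes and 27.2 CPM of Mt4, but replicate 4, the next highest in Mt4 at 17.8 CPM, had the least hair gene signal of the day, 247 CPM against 708 and 676 CPM in replicates 2 and 3. The 8 suprabasal markers summed to 4568 to 5088 CPM on Day 0, 1500 to 2029 CPM on Day 3, 3849 to 4280 CPM on Day 12 and 1576 to 2109 CPM on Day 14, so the list was below its Day 0 level on Day 14, when Mt4 was highest.

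**Figure D3:**
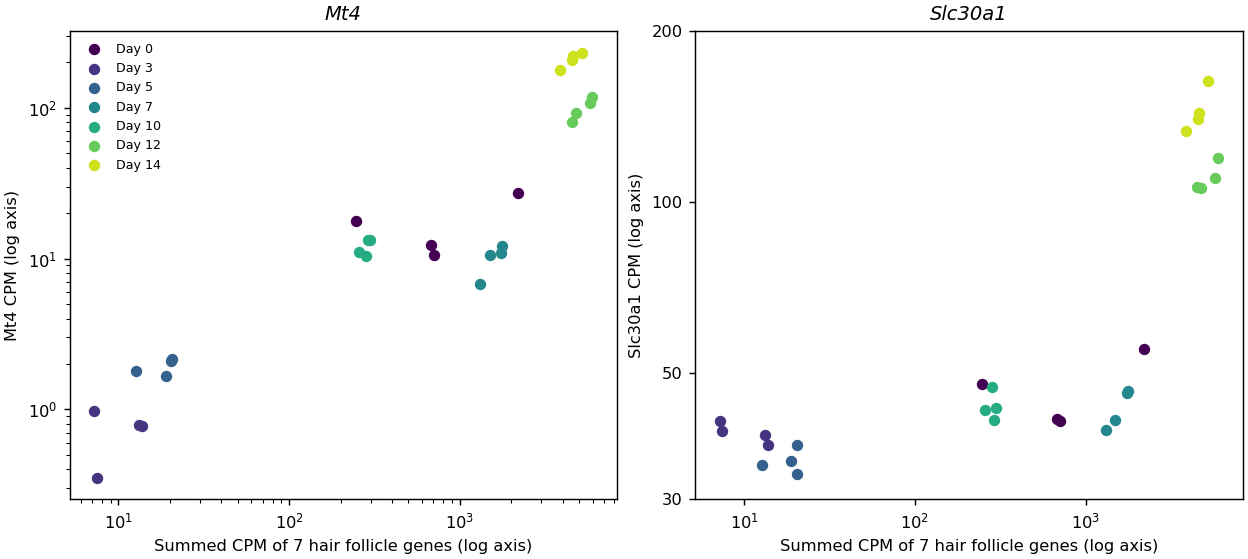
CPM of Mt4 (left) and Slc30a1 (right) against the summed CPM of 7 hair follicle genes, both on log axes; each point is 1 library and colours are days. The Day 12 and Day 14 libraries lie at the right and above the others for both genes, while the 4 Day 7 libraries hold 1308 to 1771 CPM of hair genes with Mt4 at 6.76 to 12.2 CPM.

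Slc30a1, the zinc exporter of the plasma membrane, changed little up to Day 10 and then rose, by 2.38-fold on Day 12 and 3.13-fold on Day 14. On Day 0 it was at 55.0, 41.2, 41.4 and 47.7 CPM. On Day 3 it was at 41.2, 39.4, 38.8 and 37.4 CPM, with a log2 fold change of -0.24 ± 0.08 (adjusted p = 0.00890) and with 1 library inside the range of Day 0. This small decrease was no longer called when any of 5 libraries was left out (Day 0 replicate 1 or 4, or Day 3 replicate 2, 3 or 4), and without Day 0 replicate 1 it was -0.10 (adjusted p = 0.249). On Day 5 the exporter was at 37.3, 34.4, 35.0 and 33.2 CPM, all below Day 0 (log2 fold change -0.41 ± 0.08, adjusted p = 7.09e-05). On Day 7 it was at 39.7, 46.1, 41.3 and 46.6 CPM and on Day 10 at 41.3, 43.1, 47.2 and 43.3 CPM, and neither day was called (adjusted p = 0.333 and 0.388). On Day 12 it rose to 106, 110, 106 and 119 CPM (log2 fold change 1.25 ± 0.08, adjusted p = 1.03e-12) and on Day 14 to 163, 144, 140 and 133 CPM (1.65 ± 0.08, adjusted p = 1.13e-15). All 8 libraries of these days lay above all of Day 0, and every Day 14 library lay above every Day 12 library. Slc30a1 thus shared the late rise of Mt4 but not the depth of its early fall. The hair follicle genes given beside Mt4 were also highest on Days 12 and 14, and their part in the rise of Slc30a1 was not tested. The early peak of Mt1 and Mt2 on Day 3 had no counterpart in Slc30a1, which was called lower on that day in the full set.

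Slc39a14, the importer of zinc, iron and manganese, stayed above Day 0 on every day of the wound. It was at 38.5, 31.3, 27.4 and 27.8 CPM on Day 0 and rose 7.85-fold to 250, 242, 247 and 242 CPM on Day 3. The neutrophil, macrophage, endothelial and wound edge lists given beside Mt1 and Mt2 were also above their Day 0 range on this day. All Day 3 libraries lay above those of Day 0, with a log2 fold change of 2.97 ± 0.09 (adjusted p = 5.51e-21). On Day 5 it stood at 157, 145, 145 and 129 CPM (log2 fold change 2.20 ± 0.08, adjusted p = 4.00e-18). It then came down to 56.9, 56.0, 58.3 and 48.7 CPM on Day 7 and 47.0, 50.1, 51.1 and 45.3 CPM on Day 10, where the log2 fold changes were 0.81 ± 0.08 (adjusted p = 2.77e-09) and 0.63 ± 0.08 (adjusted p = 3.01e-07). On Day 12 the values were 57.4, 53.3, 55.5 and 60.9 CPM (log2 fold change 0.86 ± 0.08, adjusted p = 1.89e-09) and on Day 14 66.0, 68.8, 62.1 and 61.8 CPM (1.05 ± 0.08, adjusted p = 1.27e-11). On all 6 days every library lay above every Day 0 library, which held for no other member. How many of all genes tested did so was not counted. The lowest level was that of Day 0, and the neighbours Day 10, Day 7 and Day 12 in the order of levels overlapped.

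Slc39a4, the intestinal type of importer, was scarce throughout, with 17 to 84 counts per library. It was at 1.48, 0.581, 1.14 and 0.862 CPM on Day 0 and highest on Day 5, at 2.20, 1.26, 2.16 and 1.76 CPM, where 3 of 4 libraries lay above all of Day 0. The log2 fold change on Day 5 was 0.86 ± 0.27 (adjusted p = 0.00857). On Day 14 it was at 0.581, 0.592, 0.418 and 0.958 CPM, with a log2 fold change of -0.67 ± 0.29 (adjusted p = 0.0479) that was lost under most alternatives tried and was -0.35 without Day 0 replicate 1 (adjusted p = 0.331). The log2 fold changes on Days 3, 7, 10 and 12 were 0.31 ± 0.28, 0.23 ± 0.28, 0.32 ± 0.28 and -0.30 ± 0.28, none of which was called. All neighbouring days in the order of its levels overlapped.

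**Figure D4:**
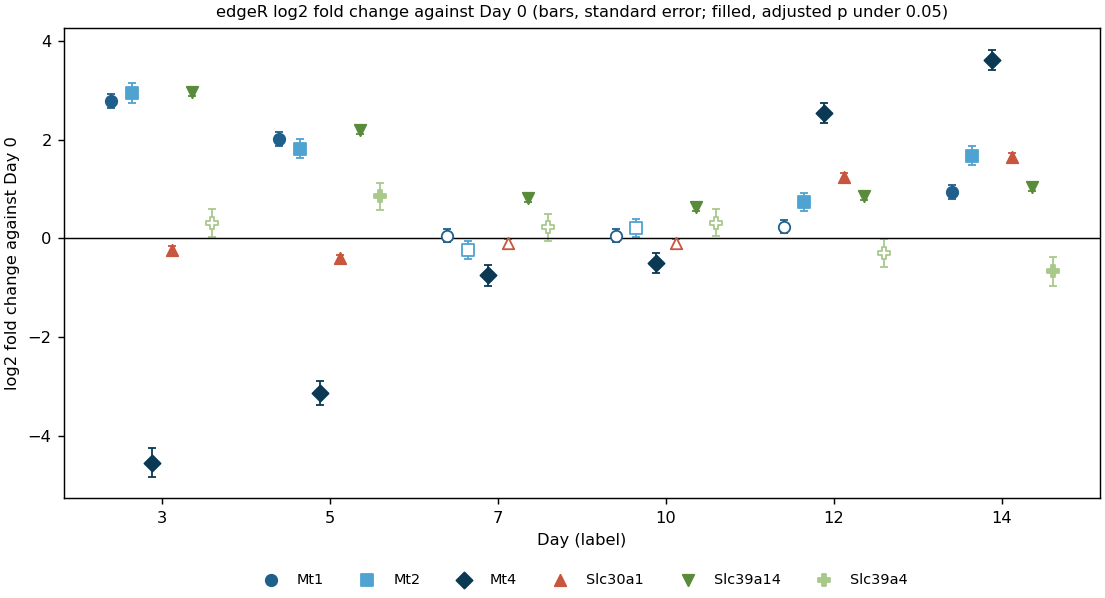
edgeR log2 fold change of each member against Day 0 on the 6 later days, with bars of 1 standard error (28 libraries in 1 fit); filled symbols have an adjusted p under 0.05 and open ones do not. Mt4 goes from -4.55 on Day 3 to 3.62 on Day 14, while Mt1, Mt2 and Slc39a14 are near 3 on Day 3.

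Exact permutation tests of single members, 4 libraries against 4, use no spread from other days. Over the 36 pairs of member and day, the smallest possible p of 0.0286 was reached by the 19 pairs whose libraries did not overlap, and adjusted over the 36 pairs this gave p = 0.0541 in the permutation test, so that no pair passed 0.05 by this test. The share of all genes whose libraries did not overlap was not counted, so the 19 pairs do not set the members apart from other genes.

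Between consecutive days after Day 3, Mt1, Mt2 and Slc39a14 were called lower in the steps up to Day 7, Mt4 and Slc30a1 were called only higher, and Slc39a4 was called in no step, all in the full set of 28 libraries. Some alternatives added calls, namely Slc30a1 lower from Day 3 to Day 5 in the fit of those 8 libraries (-0.16, adjusted p = 0.0498), Slc39a4 lower from Day 5 to Day 7 without Day 5 replicate 2 (-0.78, adjusted p = 0.0421) and from Day 10 to Day 12 without Day 12 replicate 1 (-0.83, adjusted p = 0.0322), and Mt1 higher from Day 10 to Day 12 in the fit of 8 libraries (0.19, adjusted p = 0.000781). From Day 3 to Day 5, Mt1, Mt2 and Slc39a14 fell (3 members, 11.4% of all genes fell) and Mt4 rose (1 member, 12.9% of all genes rose). Mt2 fell further than Mt1 in this step, with log2 fold changes of -1.13 ± 0.19 and -0.77 ± 0.14, a difference that was not tested. From Day 5 to Day 7 the same 3 genes fell (14.6% of all genes) and Mt4 and Slc30a1 rose (13.9% of all genes). Mt1 and Mt2 fell by 1.96 and 2.05 on the log2 scale in that step (adjusted p = 1.65e-11 and 3.54e-09), and Slc39a14 fell by 1.39 (adjusted p = 3.73e-13). From Day 7 to Day 10 edgeR called 0 members (14.3% of all genes rose and 18.0% fell), while 2 had an unadjusted p under 0.05, and DESeq2 and limma on log2(FPKM + 1) also called 0. Other settings did call members in this step. Mt2, whose Day 10 libraries all lay above those of Day 7 (log2 fold change 0.44, adjusted p = 0.0734), was called higher in the edgeR fit of these 8 libraries alone (0.45, adjusted p = 4.01e-06), without composition normalization and with limma on genes with a mean FPKM of at least 1. Slc39a14 (-0.18, adjusted p = 0.0821) was called lower in the fit of 8 libraries (adjusted p = 0.0255) and without Day 7 replicate 4 (-0.23, adjusted p = 0.0359). From Day 10 to Day 12, 4 members rose, Mt2, Mt4, Slc30a1 and Slc39a14 (18.7% of all genes), and none fell (20.7%). Slc30a1 rose by 1.34 ± 0.08 on the log2 scale in this step (adjusted p = 2.26e-13), Mt2 by 0.53 ± 0.19 (adjusted p = 0.0251) and Slc39a14 by 0.23 ± 0.08 (adjusted p = 0.0236), and the calls of the last 2 genes were each lost when 1 of 3 libraries was left out. From Day 12 to Day 14 Mt1, Mt2, Mt4 and Slc30a1 rose (19.9% of all genes) and none fell (25.3%), with log2 fold changes from 0.39 ± 0.08 for Slc30a1 to 1.07 ± 0.19 for Mt4. Slc39a14 was just short of a call in this step (0.19, adjusted p = 0.0583) and was called higher with DESeq2, with its size factors in edgeR, under both other filters on low counts, with the replicate block, in the fit of 8 libraries (adjusted p = 0.00368) and without Day 12 replicate 4 (0.23, adjusted p = 0.0353).

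Levels of different genes are compared per length, as FPKM, in which the count is scaled to the gene's length and the library's total. On Day 3 Mt2 averaged 1395 ± 106 FPKM (SD, n = 4) and ranked 25 to 38 among all 29068 genes of a library, while Mt1 averaged 546 ± 15.9 FPKM (rank 112 to 131). On Day 0 they averaged 187 ± 93.8 and 81.9 ± 26.6 FPKM. The length behind the FPKM of Mt1 was 1258 bases, longer than the 1246 bases that the gene spans with its introns and than its annotated spliced transcripts of 549, 633 and 1085 bases, so its FPKM is low against that of Mt2, whose length was 556 bases. On Day 14 Mt4 reached 569 ± 63.8 FPKM (rank 115 to 138), near the 652 ± 53.3 FPKM of Mt2 and above the 172 ± 20.7 FPKM of Mt1, while on Day 3 it averaged 1.74 ± 0.635 FPKM (rank 10414 to 12619). Mt4 was then below Slc39a14 and Slc30a1, which averaged 22.6 and 6.88 FPKM on Day 3. Slc30a1 averaged 8.44 ± 1.15 FPKM on Day 0 and 28.9 ± 2.57 FPKM on Day 14, Slc39a14 averaged 2.99 ± 0.474 FPKM on Day 0 and 22.6 ± 0.527 FPKM on Day 3, and Slc39a4 averaged between 0.248 and 0.636 FPKM over the days. The length behind Slc39a14 was 10218 bases, against 5117 bases in its longest annotated transcript, which likewise lowers its FPKM.

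The genes whose profile over the 7 days was most like each member were found by the root mean square difference between day means of log2 CPM, after each profile was centred on its own mean, over all 18107 genes tested. For Mt1 the nearest gene was Slc39a14, at a difference of 0.27, followed by Gsr (glutathione reductase) and Chil1 (a chitinase-like protein), both at 0.28, and Mt2 was at 0.34 with 6 genes nearer. For Mt2 the nearest were Gm42054 (0.28), Mt1 (0.34) and Gm12236 (0.39). For Slc39a14 they were Gsr (0.12), Gm13986 (0.18) and Mt1 (0.27). The profiles of Mt1, Mt2 and Slc39a14 were thus among the nearest to each other of all genes, except that 7 genes were nearer to Mt2, and 109 nearer to Slc39a14, than the other of that pair. For Mt4, whose day means spanned 8.15 on the log2 scale, the nearest were Krt32 (a hair keratin, 0.38), Hoxc13 (a transcription factor of the hair shaft, 0.48) and Tagln3 (0.49). For Slc30a1 they were Lap3 (leucine aminopeptidase, 0.08), Gclc (an enzyme of glutathione synthesis, 0.08) and Stk26 (a protein kinase, 0.10). For Slc39a4 they were Plod1 (a collagen lysyl hydroxylase), Lrp11 and Pde2a, at 0.12 to 0.13, with day means that spanned 1.49 on the log2 scale. All libraries enter both profiles of a pair, so these are descriptions with no test.

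Other genes of zinc handling were taken as a list of 25, of which 22 were tested. Slc30a10 and Slc39a5 had too few counts, and Slc30a8 was not analysed here. Against Day 0, 9 rose and 7 fell on Day 3, and 10 rose and 7 fell on Day 5. The counts were 9 up with 4 down at Day 7 and 8 up with 2 down at Day 10. At Day 12, 6 rose and 2 fell, and at Day 14, 5 rose and 7 fell, beside the shares of all genes given above. Several of these counts changed with the scaling, the tool or a left-out library, as given in the closing section. Their median log2 fold change was 0.16 on Day 3 and -0.04 on Day 14, against -0.03 and -0.06 over all genes, and the limits of the study were passed by at most 4 of them on any day. Mtf1, the metal sensor of the metallothionein promoters, was at 20.4 to 21.8 CPM on Day 0 and 24.3 to 29.5 CPM on Day 3 (log2 fold change 0.30, adjusted p = 0.00198), while on Day 14 it was at 15.6 to 17.7 CPM (-0.35, adjusted p = 0.000489). On Day 3 the highest changes among those called were those of Gpr39, a zinc-sensing receptor, with 0 to 17 counts in the libraries of Day 0 and 59 to 92 in those of Day 3 (log2 fold change 3.31 ± 0.47, adjusted p = 5.29e-07), and of the importer Slc39a1, from 114 to 123 CPM to 209 to 220 CPM (0.86 ± 0.05, adjusted p = 6.47e-15). The lowest were those of the exporter Slc30a2, from 19 to 47 counts to 4 to 20 counts (-1.74 ± 0.44, adjusted p = 0.00100), and of the importer Slc39a10, from 42.6 to 82.6 CPM to 36.1 to 38.0 CPM (-0.81 ± 0.13, adjusted p = 3.06e-06).

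On both Days 12 and 14, 3 importers of the list were called higher, which are named after their values were seen. Slc39a10 was at 255 to 310 CPM on Day 12 and 312 to 390 CPM on Day 14 (log2 fold change 2.10 and 2.39 against Day 0). Its close relative Slc39a6 went from 30.9 to 48.4 CPM on Day 0 to 91.5 to 105 CPM on Day 12 and 106 to 122 CPM on Day 14 (1.36 and 1.58), and Slc39a8, which carries zinc and manganese, from 13.8 to 29.5 CPM to 53.0 to 66.3 CPM and 38.5 to 47.3 CPM (1.75 and 1.23). In each of the 3 genes every library of Days 12 and 14 lay above every library of Day 0, as in Mt4 and Slc30a1. The share of all genes with this separation was not counted. The summed hair follicle genes were at their highest on the same days, as given beside Mt4, and their part in these rises was not tested. Another importer, Slc39a2, was called higher on Day 12 only, at 2.42 to 3.08 CPM against 0.835 to 2.46 CPM on Day 0 (log2 fold change 0.74 ± 0.27, adjusted p = 0.0239), with overlapping libraries, and on Day 14 it was not (0.16 ± 0.27, adjusted p = 0.623). Slc30a3 had 0 or 1 counts per library on Day 0 and at most 15 counts on any day, so that no fold change is given for it.

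**Figure D5:**
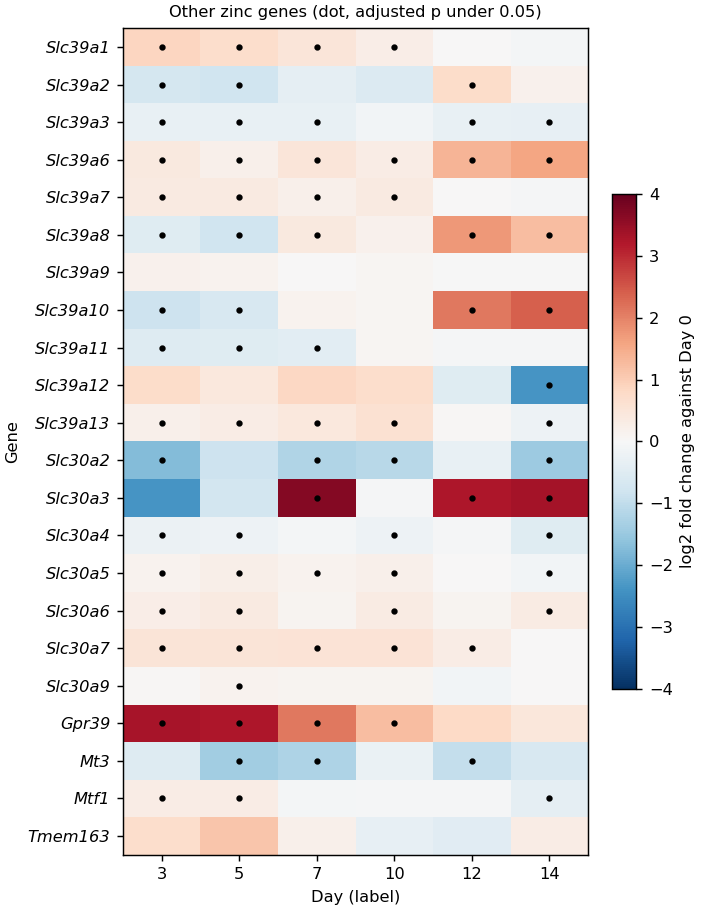
Log2 fold change against Day 0 of the 22 other zinc genes tested, by day (colour scale from -4 to 4); dots mark an adjusted p under 0.05. Slc39a10, Slc39a8 and Slc39a6 are high on Days 12 and 14 and Gpr39 on Days 3 and 5, while the strong colours of Slc30a3 rest on at most 15 counts per library.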

How the data were processed

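Whole wound tissue was measured by RNA sequencing in 28 libraries (TRIzol extraction, VAHTS Universal V6 kit). The authors deposited raw read counts per gene symbol, without normalization, and FPKM values, which equal the count divided by a fixed gene length and the library total. The submitters' processing notes name fastp, R 3.2.0 and the mm10 build, and the study names DESeq2. The aligner, the counting tool, the annotation and the use of strand are not given in the sources used here. Groups were taken from the sample titles.

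Counts were fitted with edgeR 4.0.16 in R 4.3.3 (TMM, filterByExpr by day, glmQLFit and glmQLFTest, two-sided, Benjamini-Hochberg over 18107 genes, 21 residual degrees of freedom, no covariates). Log2 CPM used a prior count of 2. Exact permutation tests were run in scipy. On simulated counts for Day 3 against Day 0 with 200 genes changed by a log2 fold change of 1.5, edgeR recovered 193 with 7 false calls among 17724 genes. The simulation gave a gene the same spread on every day. In the data the biological coefficient of variation was 26.5% on Day 0 and 6.23% on Day 3. The false calls of comparisons with so variable a Day 0 were therefore not checked. Depth was 36706513 to 40655764 counts per library, and intervals of counts were not needed, since replicate error was used. No 2 libraries of a day agreed within counting noise (median chi-square per gene of at least 1.47, against 0.455 for counting noise alone).

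Alternatives in edgeR were size factors as in DESeq2, library totals alone, dropping the filter, a minimum of 10 counts in all libraries, fits of the 8 libraries of 2 days, a block for the replicate number, and a covariate of log2 CPM of Xist. Other tools were DESeq2 1.42.0 and limma 3.58.1 with a pseudocount of 1 or 0.1 on FPKM and, for 1, also with a mean FPKM of at least 1. The Mt2 to Mt1 ratio was also taken from FPKM, and each library was left out in turn. The named genes were the 6 members, Mtf1, the 2 highest and 2 lowest called zinc genes on Day 3, and the 3 genes most like each member. Slc39a2, Slc39a6, Slc39a8 and Slc30a3 were added after their values were seen. The members, gene lists and tests were chosen with earlier results of these data known. The other experiments of the study were not analysed here. A marker list also fixed for adipocytes summed to 1008 to 1712 CPM over all libraries.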

Additional observations from a re-analysis of the deposited data

Results flagged for a closer look

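Among 49 groups of 4 libraries (6 members and the ratio of Mt2 to Mt1, on 7 days each), 2 held a library far from the other 3 by Dixon's test at the 95% level, where chance alone gives about 1 in 20, or 2.45. Both were Day 5 replicate 4, with a log2 CPM of 9.03 for Mt1 against 8.60 to 8.67 in the other libraries of the day, and of 8.82 for Mt2 against 8.42 to 8.48. The 2 flags are not independent, since both genes were highest in the same library, and the ratio of Mt2 to Mt1 there was not flagged. Without this library Mt1 and Mt2 stayed called higher than Day 0 on Day 5.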

How the results depend on the processing

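Of 678 alternative values of the members against Day 0, 631 kept their direction and their side of the threshold, 33 lost the call, 8 gained one and 6 reversed, and of 565 between consecutive days 534, 6, 16 and 9 did so. The early rise of Mt1, Mt2 and Slc39a14, the fall of Mt4 on Days 3 and 5 and the late rise of Mt4 and Slc30a1 were called under all of them, Mt4 on Day 3 between -4.72 and -3.93 and on Day 14 between 3.49 and 4.02. The 6 reversals against Day 0 and 7 of those between Days 7 and 10 came from leaving out 1 library, in values that were not called in the full set. The ranges over left-out libraries were -0.0561 to 0.299 for Mt1 on Day 7, -0.0527 to 0.306 for Mt1 on Day 10, -0.398 to 0.157 for Mt2 on Day 7, -0.136 to 0.0110 for Slc30a1 on Day 10, and, for Day 10 against Day 7, -0.0386 to 0.0443 for Mt1, -0.0312 to 0.0505 for Slc30a1 and -0.0222 to 0.185 for Slc39a4. For Mt1 on Day 10 against Day 7 the value was also -0.00125 with at least 10 counts in every library and -0.000845 with Xist as a covariate. The count of members that fell was 0 on Day 7 with the 8 libraries of the comparison (1 otherwise). It was 0 on Day 10 with no composition normalization, DESeq2, limma on log2(FPKM + 1), on log2(FPKM + 0.1) and with a mean FPKM of at least 1, and the 8 libraries. On Day 14 it was 0 under every such setting except at least 10 counts in every library. Leaving out 1 library gave 1 to 2 members that fell on Day 3, 0 to 1 on Days 10 and 14, and 1 to 2 and 1 to 3 that rose on Days 7 and 10, the highest without Day 0 replicate 1. Members that rose on Day 12 were 3 with the 8 libraries and 5 with no composition normalization, limma or without Day 0 replicate 1. With a mean FPKM of at least 1, Slc39a4 was not tested, so 5 members varied over Days 3 to 14.

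Of the other zinc genes, the 8 libraries gave 5 higher and 2 lower on Day 7, 1 lower on Days 10 and 12 and 4 lower on Day 14. No composition normalization gave 1 lower on Day 10 and 11 higher and 0 lower on Day 12. Limma gave 1 lower on Day 10 (0 with a mean FPKM of at least 1), 10 to 11 higher on Day 12 on log2(FPKM + 1) and log2(FPKM + 0.1) and 0 lower in all 3, and 4 lower on Day 14 (3 with that minimum). At least 10 counts in every library gave 1 lower on Day 10, and Xist as a covariate 1 lower on Day 12. Leaving out 1 library gave 3 to 7 lower on Day 3 (3 without Day 3 replicate 2, 4 without replicate 4), 2 to 4 on Day 7 (2 without Day 0 replicate 1), 0 to 3 on Day 10 (0 without Day 10 replicate 4) and 1 to 2 on Day 12. The causes were not tested.

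The replicate numbers did not pair the libraries: same-numbered libraries of different days had a median correlation of -0.00091, with 1 of 84 over 0.1. With the replicate number as a block, the fall of Slc39a4 on Day 14 was no longer called (-0.63, adjusted p = 0.0544), which left 0 members that fell that day, and Slc39a14 was called higher on Day 14 than on Day 12 (0.18, adjusted p = 0.0451). The block changed no other call of a member, and within numbers the Mt2 to Mt1 difference had an exact sign-flip permutation p, adjusted over 6 days, of 0.250 on Days 12 and 14, where 4 pairs cannot go below an unadjusted 0.125. Leaving out 1 library gave 0.50 to 0.67 for this difference on Day 12 and 0.74 to 0.90 on Day 14. Depth limits Slc39a4, at 17 to 84 counts, and Mt4 on Day 3, at 13 to 36 counts.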
